A study of Mus musculus with 24 samples.

Results

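The genes described here encode enzymes of glycolysis and the transporter that exports its end product, lactate. They are Hk1, Hk2, Gpi1, Pfkl, Pfkp, Aldoa, Pgk1, Pkm, Ldha and Slc16a3, and their rows were found by symbol. The 10 symbols matched 11 of the 54532 rows of the count table, because Aldoa has a second row, ENSMUSG00000114515. That row is a separate Ensembl gene model next to Aldoa that never exceeded 1.36 CPM (counts-per-million, read counts scaled to the library total), so Aldoa below means ENSMUSG00000030695.

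Whole kidneys of 24 C57BL/6 mice (by the study's methods, C57BL/6 J) aged 18 days were profiled by RNA-seq, each mouse giving 1 library. Every mouse had 1 RC allele of Pkd1, the polycystin-1 gene, which carries a missense mutation. In the noncystic RC/+ mice (n = 3) the other allele was a floxed Pkd1 allele without Cre, and in the cystic RC/- mice (n = 5) that allele was inactivated by Ksp-Cre, which is driven by the Cdh16 promoter in kidney tubule epithelium. The D18 line (founder 3) and the D53 line (founder 2) lacked the miR-17 motif in the 3′ UTR of the RC allele, and each gave 3 noncystic (RC/+ D18, RC/+ D53) and 5 cystic (RC/- D18, RC/- D53) mice. Each edited line stems from 1 founder. By the study's account the founders were heterozygous for the edit, so that their crosses could give edited and unedited mice of the same parents, but the labels name no founder for the RC/+ and RC/- mice. Founder descent and edit thus cannot be told apart here. Nor can Cre and the cystic state, since only cystic mice had Cre.

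Glycolysis splits glucose into pyruvate in the cytosol and yields ATP without oxygen. Lactate dehydrogenase turns pyruvate into lactate, which leaves the cell through monocarboxylate transporters, so that the cell can keep the pathway running. In the kidney the proximal tubule relies mainly on mitochondrial oxidation and can make glucose, whereas distal segments use more glucose. Several steps have isozymes with different tissue patterns, such as Pklr in liver and proximal tubule and Pkm in most other cells. Many genes of the pathway are known targets of hypoxia-inducible factors, whose binding element contains ACGTG, and of MYC, which binds CACGTG.

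Sequence around the gene starts is shown because these motifs are the letters through which such factors are known to bind. RefSeq (GRCm38.p6) windows from 250 bases before to 50 bases after each start were available for all 10 symbols, 15 windows in total. ACGTG on either strand was present in 8 of the 15 windows, and in 19.6% of all 32851 mouse promoter windows. Those 8 windows belonged to 7 of the 10 symbols, and a pair of overlapping Aldoa windows shared their site. CACGTG, each copy of which also contains ACGTG on both strands, was present in Ldha and in 7.15% of all windows. GCGTG, a related motif that was also counted, was present in windows of Hk1, Pfkl, Pfkp and Ldha, and in 32.4% of all windows. Either ACGTG or GCGTG was present in 43.8% of all windows. Among the member windows, those without either were that of Gpi1 and the first of Hk1, Aldoa and Pkm. The sites printed here, on the strand of the gene, lay upstream of a start and outside annotated exons, with capitals marking ACGTG or its reverse complement CACGT.
Hk2 at -52, chr6:82774490-82774518, minus strand, between genes: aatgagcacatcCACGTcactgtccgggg
Aldoa at -126 from its second RefSeq start, chr7:126799364-126799392, minus strand, intron of Aldoa: tgtggctcgagtCACGTcctagcggggcg
Pgk1 at -150, chrX:106186938-106186966, plus strand, between genes: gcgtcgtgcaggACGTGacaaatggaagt
Ldha at -48, chr7:46845744-46845772, plus strand, intron of an Ldha transcript: cggcccagcctaCACGTgggttcccgcac
The capitals of the Ldha site are the first letters of a CACGTG. Slc16a3 also held ACGTG at -27 and -14, inside an annotated exon. A match describes these letters only, and no binding was measured.

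Library totals ranged from 20.4 to 30.8 M counts. Summed CPM of skeletal muscle markers was 233 to 291 in replicates 20 to 22 of RC/- D18 and all RC/- D53 mice, against 50.2 to 88.9 in the other 16 libraries. The labelled kidney was present by its markers: summed CPM of 8 proximal tubule markers was 8283 in RC/+ and 3195 in RC/-. Pkd1 itself, which the edit concerns, measured 50.7 ± 0.803 CPM in RC/+ (SD, n = 3) and 59.0 ± 5.76 CPM in RC/- (SD, n = 5), and from 55.2 to 61.7 CPM on average in the edited groups. Its alleles were not told apart in these counts.

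The first question was how these genes differ between cystic and noncystic kidneys of unedited mice. Slc16a3, the lactate exporter, was 3.08-fold higher in RC/- kidneys, and the phosphofructokinase Pfkp was 1.76-fold higher. Hk1, Gpi1, Pfkl, Aldoa, Pkm and Ldha rose as well, by 0.30 to 0.51 on the log2 scale. In all, 8 of the 11 rows rose and none fell at an adjusted p below 0.05 (limma-trend, Benjamini-Hochberg adjustment over 22570 genes). Of all genes tested 25.5% rose and 12.2% fell. The RC/- libraries lay entirely above the RC/+ libraries in the same 8 rows, and did so in 26% of all genes. The members' median log2 difference was 0.49, and that of all genes was 0.14. The values per library are plotted next.

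**Figure D1:**
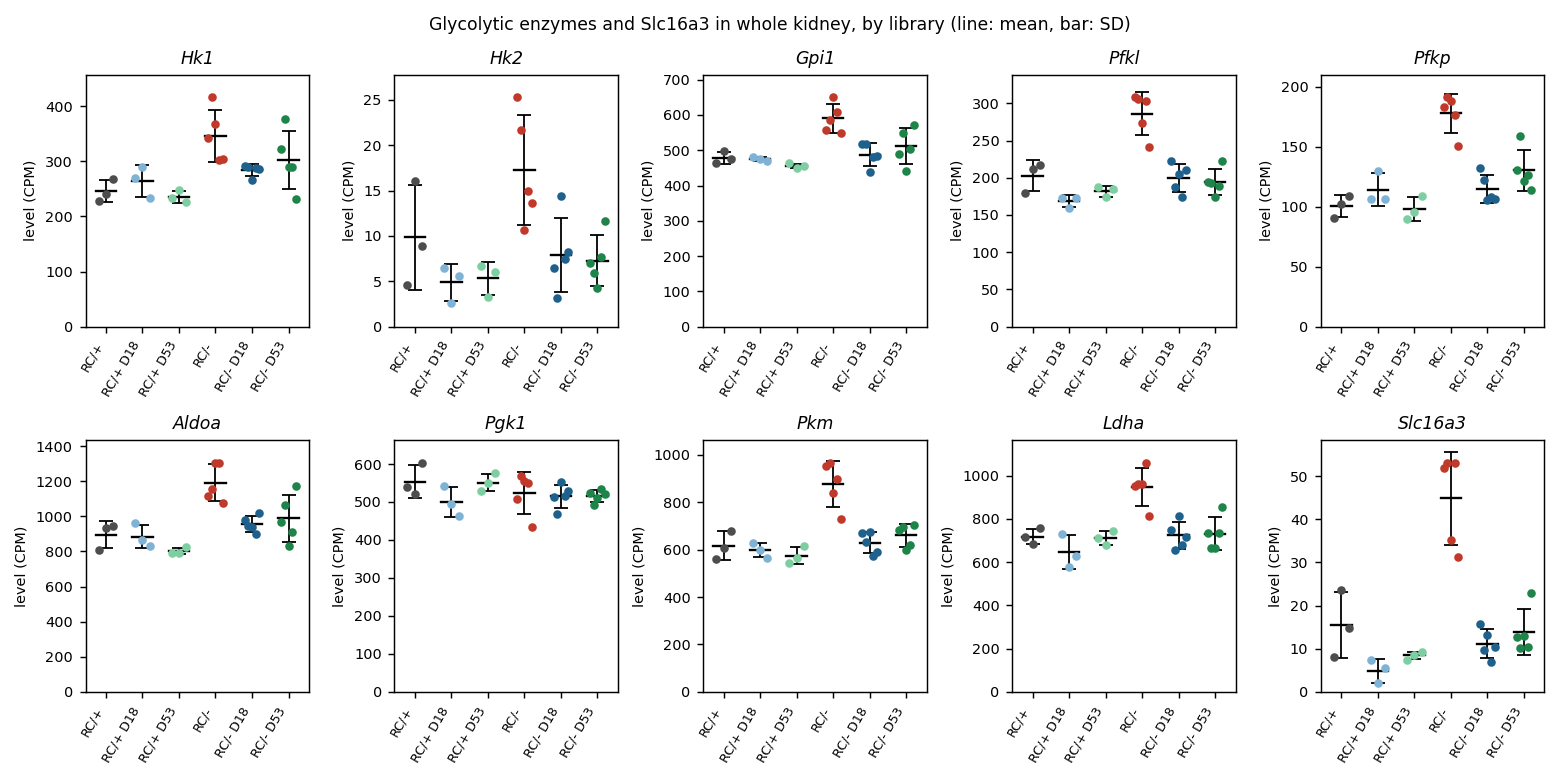
Level of each of the 10 genes in CPM (vertical axis from 0) in the 24 libraries, by group; points are mice and bars are the group mean ± SD. For 8 of the 10 genes every RC/- library lies above every RC/+ library, whereas Hk2 and Pgk1 overlap between these groups.

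Slc16a3 encodes MCT4, a monocarboxylate transporter known for lactate export from glycolytic cells (chromosome 11, 120948480 to 120960868, plus strand). Its levels were 8.08, 23.5 and 14.9 CPM in the RC/+ libraries (replicates 4 to 6) and 51.8, 52.96, 35.2, 53.1 and 31.2 CPM in the RC/- libraries (replicates 13 to 17). Every RC/- kidney was above every RC/+ kidney, and replicate 5 was the highest of the RC/+ kidneys. The log2 difference was 1.62 ± 0.354 (SE, adjusted p = 0.000745). Slc16a3 counts were 48 to 1265 per library, so single libraries were measured with far less relative precision than those of the other members except Hk2 and the second Aldoa row.

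Hexokinases trap glucose in the cell by phosphorylating it. Hk1 (chromosome 10, 62268855 to 62379908), the isozyme present in most tissues, took 90.9% of the reads per kilobase of Hk1, Hk2, Hk3 and Hkdc1 in RC/+ kidneys. Its level was 246 ± 19.9 CPM in RC/+ (SD, n = 3) and 347 ± 47.4 CPM in RC/- (SD, n = 5), with no overlap between the groups, a log2 difference of 0.49 ± 0.115 (SE, adjusted p = 0.00151). Hk2 (chromosome 6, 82725025 to 82774454), the inducible isozyme of muscle, fat and many tumours, was low and variable. It measured 4.61, 16.01 and 8.87 CPM in RC/+ and 25.3, 21.7, 10.7, 14.99 and 13.7 CPM in RC/-. The groups overlapped, because RC/+ replicate 5 exceeded 3 of the RC/- kidneys. The log2 difference of 0.91 ± 0.423 (SE) did not pass the test (adjusted p = 0.0941), without RC/+ replicate 5 it was 1.35 (adjusted p = 0.0275), and without RC/+ replicate 4 it was 0.46 (adjusted p = 0.482). RC/+ replicate 5 was also the RC/+ library with the highest Slc16a3.

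Gpi1, the isomerase that follows hexokinase (chromosome 7, 34201330 to 34230336), had the smallest called difference. It ranged from 462 to 497 CPM in RC/+ and from 549.9 to 649.7 CPM in RC/-, a log2 difference of 0.30 ± 0.0749 (SE, adjusted p = 0.00247). The groups did not overlap.

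Phosphofructokinase commits sugar to glycolysis. Pfkp, the platelet-type isozyme (chromosome 13, 6579768 to 6648777), measured 90.9, 102 and 109 CPM in RC/+ and 183, 191, 188, 176 and 150.3 CPM in RC/-. The lowest RC/- kidney was well above the highest RC/+ kidney, and the log2 difference was 0.82 ± 0.106 (SE, adjusted p = 1.35e-06). Pfkl, the liver-type isozyme (chromosome 10, 77986947 to 78010083), measured 179, 212 and 217 CPM in RC/+ and 308, 305, 273, 303 and 241 CPM in RC/-. These groups did not overlap either, and the log2 difference was 0.50 ± 0.0910 (SE, adjusted p = 0.000121).

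Aldoa, the aldolase of muscle and most other cells (chromosome 7, 126795234 to 126800751), measured 807, 935 and 943 CPM in RC/+ and 1117, 1158, 1306, 1301 and 1076 CPM in RC/-. All RC/- kidneys were higher, and the log2 difference was 0.41 ± 0.0927 (SE, adjusted p = 0.00100). Pgk1, which makes the first ATP of the payoff phase (chromosome X, 106187100 to 106203699), was the exception among the members with high counts. It measured 538, 519.9 and 603 CPM in RC/+ and 509, 569.5, 555, 549 and 435 CPM in RC/-. The groups overlapped and the log2 difference was -0.08 ± 0.0785 (SE, adjusted p = 0.430).

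Pkm, the pyruvate kinase of most tissues other than liver (chromosome 9, 59656368 to 59679375), measured 561, 608 and 680.4 CPM in RC/+ and 953, 966, 837, 898 and 731 CPM in RC/-. The groups were apart, with a log2 difference of 0.51 ± 0.0883 (SE, adjusted p = 6.72e-05). Counts per gene do not separate the M1 and M2 forms of Pkm. Ldha, the lactate dehydrogenase subunit known to favour lactate production (chromosome 7, 46841475 to 46855627), measured 716, 683 and 755 CPM in RC/+ and 951, 960.5, 961, 1059 and 812.6 CPM in RC/-. These groups were apart too, with a log2 difference of 0.40 ± 0.0934 (SE, adjusted p = 0.00147).

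Whole kidneys were sequenced, so more cells of a type and more RNA per cell cannot be told apart. Summed CPM of 7 macrophage markers was 230.0 in RC/+ and 628 in RC/-, with all 7 markers higher, and that of 6 fibroblast markers was 1734 and 4467, with 4 of 6 higher. Summed CPM of 8 collecting duct markers was 1026 and 2401, with 5 of 8 higher and 2 lower. All 8 proximal tubule markers were lower. So were 5 of 6 markers of the thick ascending limb and distal convoluted tubule, whose summed CPM was 5520 in RC/+ and 2768 in RC/-. The neutrophil markers summed to at most 6.24 CPM in any library, with Ly6g at 0 in 14 libraries and Mpo at 0 in 9. The part of these cell types in the differences of the glycolytic genes was not tested.

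When libraries were scaled by TMM factors instead of total counts, the median log2 difference of all genes moved from 0.14 to 0.01 and the split of called genes from 5753 higher and 2744 lower to 3862 higher and 3886 lower. On that scale 5 members rose (Slc16a3, Pfkp, Pkm, Pfkl and Hk1), and Aldoa, Ldha and Gpi1 missed the threshold with adjusted p = 0.0558, 0.0588 and 0.157.

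Per length, in reads per kilobase of exon scaled to library size (RPKM), the order of mean levels in RC/+ kidneys was Aldoa (307), Pgk1 (247), Ldha (217), Pkm (123), Gpi1 (74.2), Pfkl (30.4), Hk1 (28.8), Pfkp (7.51), Slc16a3 (2.91) and Hk2 (1.65). In RC/- kidneys Ldha (287 RPKM) was above Pgk1 (233 RPKM). With the longest transcript as the length, Ldha (396) was above Pgk1 (303) in RC/+ as well, and Hk1 (57.5) was above Pfkl (54.4). The order of these neighbours thus depends on the length used.

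Isozyme balance within each step was described as the log2 ratio of reads per kilobase, with no test. For the exporter, the ratio of Slc16a3 to Slc16a1, which encodes the widely expressed transporter MCT1, moved from -2.06 ± 0.818 to 0.13 ± 0.376 (SD), a 4.57-fold change without overlap. Slc16a1 fell from 49.1 ± 1.54 to 33.3 ± 2.98 CPM (SD; log2 difference -0.56, adjusted p = 0.000465). Slc16a7, which encodes the related transporter MCT2, fell by 1.41 on the log2 scale (adjusted p = 1.75e-08). Bsg, the chaperone that brings MCT1 and MCT4 to the membrane, fell by 0.17 (adjusted p = 0.0419).

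Pkm to Pklr shifted from 4.004 to 5.10, a 2.13-fold change without overlap, with Pklr lower in RC/- (log2 difference -0.58, adjusted p = 0.00301). Ldha to Ldhb, the subunit of oxidative tissues, shifted from -1.95 to -1.42, a 1.44-fold change without overlap, while Ldhb itself did not pass the test (log2 difference -0.13, adjusted p = 0.260). Pfkp to Pfkl shifted from -2.02 to -1.69, a 1.25-fold change without overlap, and the muscle-type Pfkm fell by 0.31 (adjusted p = 0.00364). Hk2 to Hk1 overlapped between the groups. The minor hexokinases Hk3 and Hkdc1 rose, from 1.13 to 3.60 CPM (adjusted p = 2.01e-05) and from 4.89 to 11.1 CPM (adjusted p = 8.31e-05). Aldoc did not pass the test (adjusted p = 0.275), and Pgk2 was too low to be tested.

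**Figure D2:**
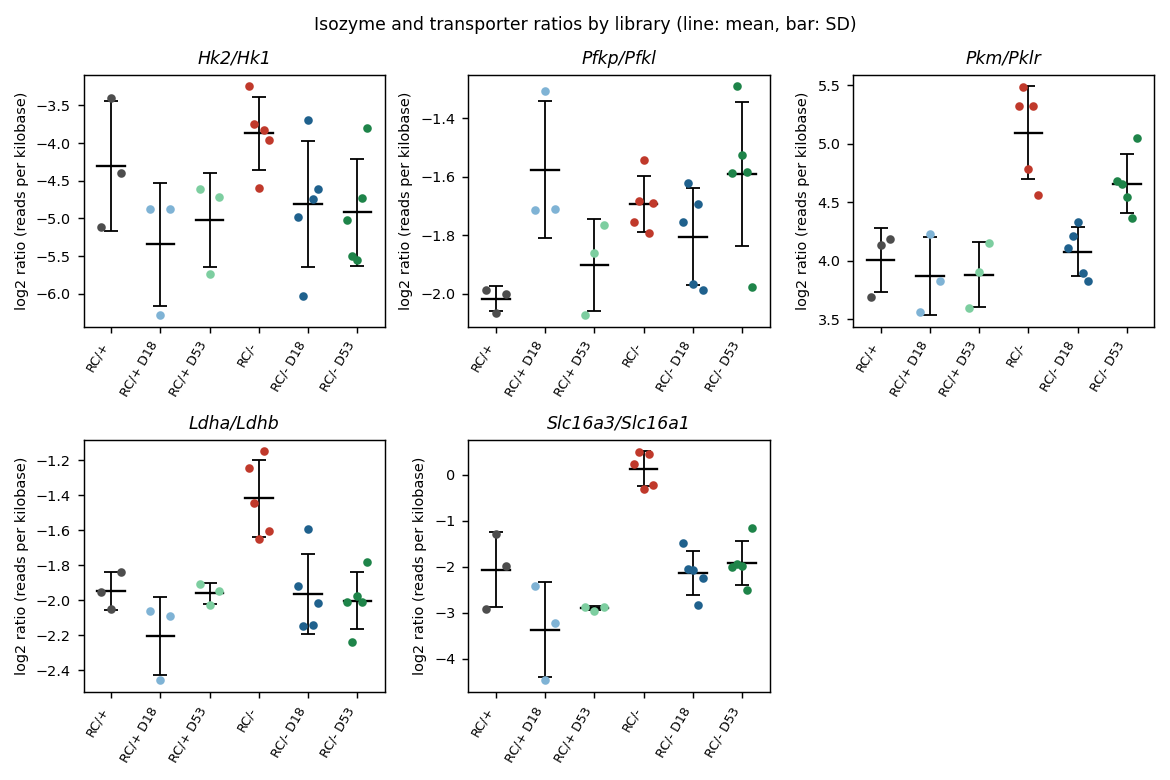
Log2 ratio of reads per kilobase for 5 isozyme or transporter pairs (vertical axis) in each library by group, with the group mean ± SD. The RC/- libraries lie above the RC/+ libraries in every pair except Hk2/Hk1, and the Slc16a3/Slc16a1 ratio shows the widest gap between RC/- and the edited cystic groups.

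Other genes of the pathway were counted in lists. Of 14 other glycolytic enzymes tested, 3 rose in RC/- (Hk3, Hkdc1 and the enolase Eno2, log2 difference 1.404, adjusted p = 2.10e-06) and 3 fell (Pklr, Pfkm and Pgam2, log2 difference -0.72, adjusted p = 2.30e-05). The median over this list was 0.06. The abundant enzymes of the lower pathway, Gapdh, Tpi1, Eno1 and Pgam1, had log2 differences of 0.08, 0.04, 0.10 and 0.01 and did not pass the test. Of 8 genes for glucose entry and fructose bisphosphate control, 4 rose and none fell. The glucose transporter Slc2a3 rose from 2.90 to 6.09 CPM (log2 difference 1.01, adjusted p = 0.00417) and Pfkfb3, which makes the activator of phosphofructokinase, from 72.8 to 120.1 CPM (0.72, adjusted p = 0.00285).

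Slc16a3 and Ldha rose, but among the listed genes beyond the members that move or use lactate and pyruvate the called differences were all downward. Of 11 genes for lactate and pyruvate handling tested, none rose and 7 fell, with a median of -0.53. The sodium-coupled lactate transporters Slc5a12 and Slc5a8, known from the apical membrane of the proximal tubule, fell from 472 to 140.2 CPM (log2 difference -1.80, adjusted p = 2.82e-07) and from 175 to 62.2 CPM (-1.54, adjusted p = 4.83e-08). Of 12 genes for pyruvate dehydrogenase subunits and regulators, none rose and 9 fell. The subunit Dld fell by 0.83 (adjusted p = 1.66e-08) and Pdha1 by 0.69 (adjusted p = 0.000106). The 9 also include Pdk1 and Pdk2, kinases known to inhibit the enzyme, which fell by 0.25 and 0.62 (adjusted p = 0.00296 and 7.46e-06).

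The branches and regulators moved both ways. Of 13 genes of the pentose phosphate and serine branches, 6 rose and 2 fell, and with TMM factors 3 rose and 4 fell. The pentose phosphate enzymes Pgd and H6pd rose by 0.53 and 0.52 (adjusted p = 4.88e-06 and 6.22e-05), and the serine hydroxymethyltransferases Shmt1 and Shmt2 fell by 0.79 and 0.53 (adjusted p = 5.09e-06 and 0.00127). Of 13 regulators of glycolysis, 7 rose and 3 fell, or 5 and 3 with TMM factors. Myc, a transcription factor, rose by 1.57 (adjusted p = 2.63e-08), and Egln3, a prolyl hydroxylase that is itself a known hypoxia target, rose by 1.49 (adjusted p = 2.72e-05). Mlxipl, the carbohydrate-response factor, fell by 0.85 (adjusted p = 0.000168) and Epas1, which encodes the hypoxia factor HIF-2 alpha, by 0.51 (adjusted p = 0.00204).

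**Figure D3:**
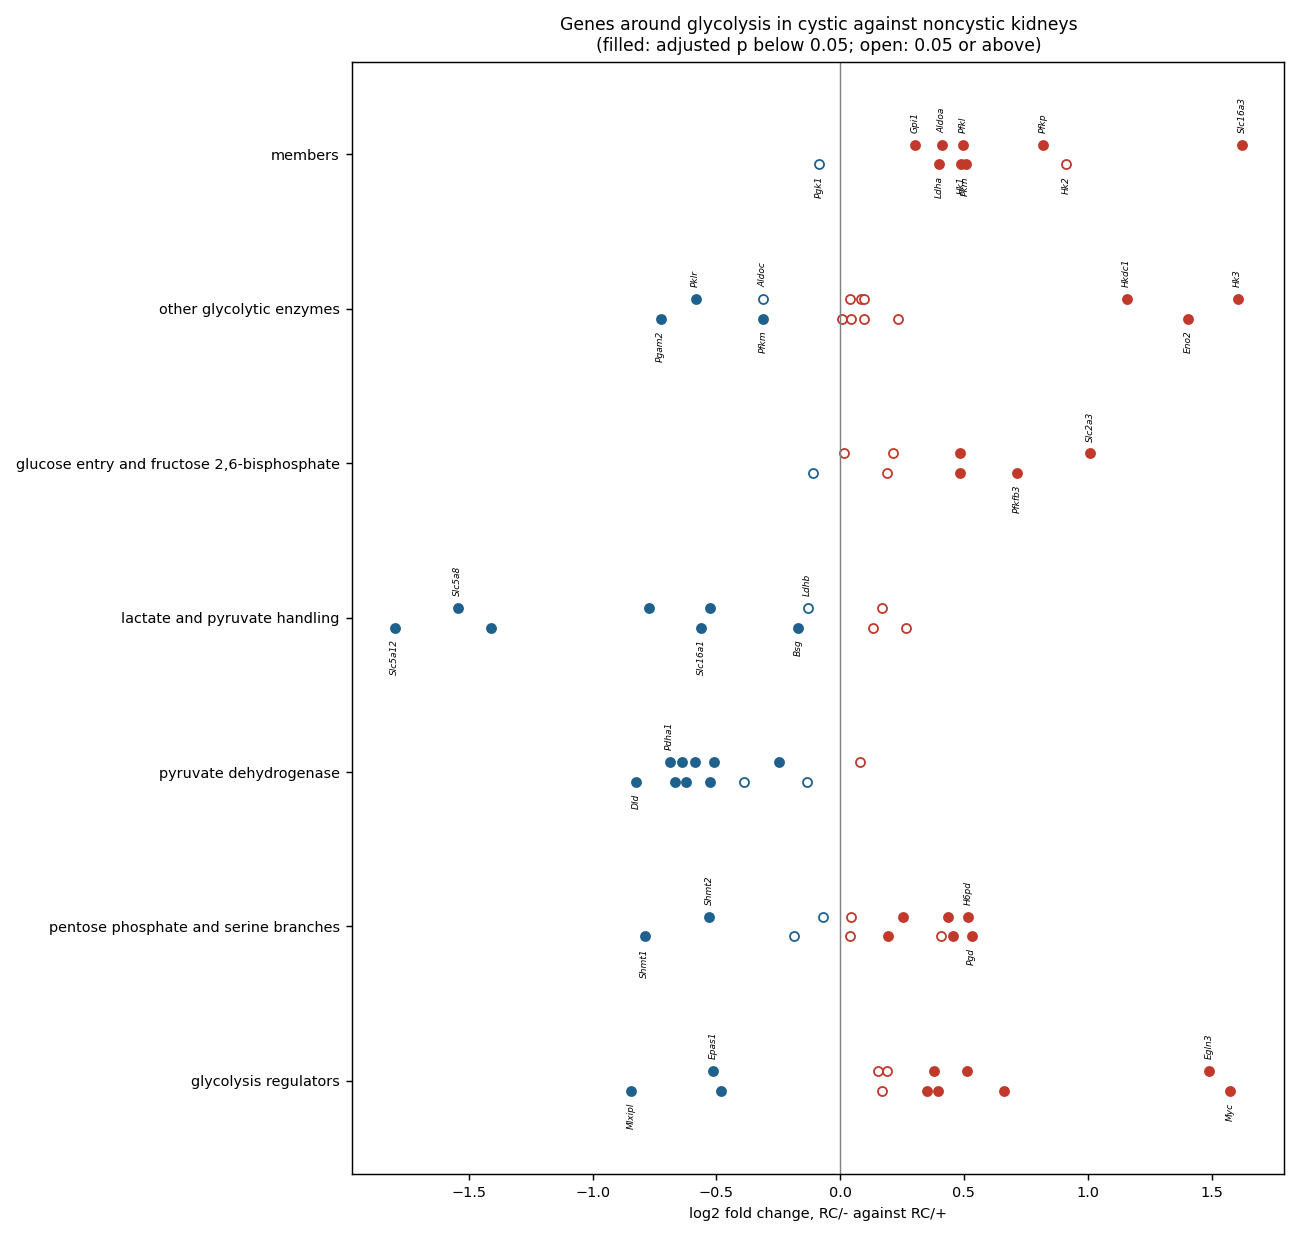
Log2 difference between RC/- and RC/+ (horizontal axis) for the members and for the genes of 6 pathway lists; filled points passed an adjusted p of 0.05, and genes described in the text or chosen by the naming rule are labelled. Of the member rows 8 are filled and to the right of 0, whereas the filled points of the lactate and pyruvate handling list (7) and of the pyruvate dehydrogenase list (9) are all to the left.

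The next question was how cystic kidneys with the edit differed from those without it. In RC/- D18 kidneys 9 of the 11 member rows were lower than in RC/- kidneys and none was higher, where 26.9% of all genes were lower and 14.3% higher. In RC/- D53 kidneys 8 were lower and none higher, where 18.9% of all genes were lower and 11.3% higher. The members' median log2 differences were -0.39 and -0.38, against -0.10 and -0.08 over all genes. The edited kidneys lay entirely below the RC/- kidneys in 8 member rows for D18 and 3 for D53 (Slc16a3, Pfkl and Pkm), as did 18.8% and 11.8% of all genes. Both comparisons use the same 5 RC/- libraries, which also enter the comparison with RC/+. Muscle markers were higher than in RC/- for 9 of 10 genes tested in D18 and 10 of 10 in D53. Without replicates 20 to 22 of RC/- D18, which had the higher muscle markers, 7 members were lower in D18 (Hk1 and Gpi1 missed the threshold). With these and the D53 libraries marked by a covariate, 7 were lower in D18 and 2 in D53 (Hk2 and Pfkl). All RC/- D53 libraries share that mark, so for D53 it rests on the split within D18. Shares of all genes called in these runs are not given here, so the fewer members called cannot be set against them. With TMM factors 6 members were lower in each line, and the called genes moved from 3238 higher and 6067 lower to 4416 and 4435 in D18 and from 2543 higher and 4262 lower to 3301 and 3021 in D53.

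Slc16a3 had the largest difference in both lines. It measured 15.8, 9.63, 13.3, 6.94 and 10.4 CPM in RC/- D18 (replicates 18 to 22) and 12.8, 10.1, 12.9, 10.4 and 22.99 CPM in RC/- D53 (replicates 23 to 27). None of these 10 kidneys reached the lowest RC/- kidney, at 31.2 CPM. Slc16a3 fell to 0.248 of the RC/- level in D18 (log2 difference -2.01 ± 0.307 SE, adjusted p = 1.05e-05) and to 0.303 in D53 (-1.72 ± 0.307 SE, adjusted p = 0.000131). With the library covariate the D53 difference was -1.403 (adjusted p = 0.1201).

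Hk2 measured 6.48, 3.11, 14.4, 7.48 and 8.24 CPM in RC/- D18 and 6.97, 5.86, 4.29, 7.63 and 11.7 CPM in RC/- D53. All but the highest kidney of each edited line were below the RC/- range. Hk2 fell by 1.20 in D18 (adjusted p = 0.0103) and by 1.24 in D53 (adjusted p = 0.0116). With the library covariate these differences were -1.85 and -2.32 (adjusted p = 0.00315 and 0.0170). Hk1 fell by 0.28 in D18 (adjusted p = 0.0285), a call lost without RC/- replicate 14 or 15 or RC/- D18 replicate 20 (adjusted p = 0.0967, 0.0657 and 0.0640). In D53 its difference of -0.20 did not pass the test (adjusted p = 0.129).

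Pfkp measured 132, 122, 105, 108 and 107 CPM in RC/- D18 and 130.2, 159, 121, 126 and 114 CPM in RC/- D53. The D18 kidneys were all below the RC/- kidneys, and D53 replicate 24 was within their range. Pfkp fell by 0.63 in D18 (adjusted p = 5.99e-06) and by 0.45 in D53 (adjusted p = 0.000497). Pfkl measured 222, 187, 205, 174 and 211 CPM in RC/- D18 and 195, 194, 174, 188 and 222 CPM in RC/- D53. All of these were below the lowest RC/- kidney, and Pfkl fell by 0.52 in D18 (adjusted p = 1.05e-05) and by 0.55 in D53 (adjusted p = 8.68e-06).

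Pkm measured 669.9, 634, 672, 575 and 592 CPM in RC/- D18 and 684, 696, 598, 618.2 and 704 CPM in RC/- D53, all below the RC/- range. It fell by 0.48 (adjusted p = 2.05e-05) and by 0.41 (adjusted p = 0.000240). Ldha measured 750.4, 658, 812.5, 680.1 and 717 CPM in RC/- D18 and 735, 666, 665, 736 and 855 CPM in RC/- D53. It overlapped RC/- through its highest D53 kidney, at 855 CPM, and fell by 0.39 (adjusted p = 0.000392) and by 0.38 (adjusted p = 0.000886). With the library covariate the D53 differences of Pfkp, Pkm and Ldha were -0.20, -0.31 and -0.44 (adjusted p = 0.478, 0.167 and 0.0603).

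Mean Aldoa was 957 ± 44.4 CPM in the edited D18 kidneys and 989 ± 133 CPM in the D53 kidneys (SD over 5 mice each), and fell by 0.31 (adjusted p = 0.00278) and by 0.28 (adjusted p = 0.0108). Gpi1 fell by 0.28 (adjusted p = 0.00124) and by 0.21 (adjusted p = 0.0145), the latter -0.06 with the library covariate (adjusted p = 0.802). With TMM factors neither Aldoa nor Gpi1 passed the test in either line, and Hk1 did not pass it in D18. Without RC/- replicate 15 or RC/- D53 replicate 25, Gpi1 did not pass it in D53 (adjusted p = 0.0522 and 0.0561). Pgk1 averaged 515 and 516 CPM in the edited cystic groups against 524 CPM in RC/-, with log2 differences of -0.02 in both lines that changed sign with TMM factors, to 0.10 and 0.07.

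Isozyme ratios were described in the edited cystic kidneys in the same way. The mean log2 ratio of Slc16a3 to Slc16a1 was -2.14 in RC/- D18 and -1.92 in RC/- D53, without overlap with the RC/- libraries. Of the reads per kilobase of the monocarboxylate transporters it was grouped with, Slc16a3 made up 37.8% in RC/- kidneys. It made up 8.15% in RC/- D18, 10.4% in RC/- D53 and 9.89% in RC/+. Pkm to Pklr did not overlap RC/- in D18 (4.08) and overlapped it in D53 (4.66).

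In the same comparisons many genes of the lactate, pyruvate and pyruvate dehydrogenase lists rose. Of the 11 genes for lactate and pyruvate handling, 5 rose in D18 and 7 in D53 and none fell, and Slc5a12 rose by 1.35 (adjusted p = 1.87e-06) and by 1.21 (adjusted p = 1.65e-05). Of the 12 pyruvate dehydrogenase genes, 8 rose in each line, and 1 fell in D18. With TMM factors 10 of them rose in D18 and 8 in D53, and none fell. On that scale 8 of the lactate and pyruvate handling genes rose in D18 and 7 in D53. Of the 8 genes for glucose entry and fructose bisphosphate control, 4 fell in D18 and 3 in D53, and with TMM factors 1 rose and 3 fell in D18. Of the 14 other glycolytic enzymes, 4 rose and 3 fell in D18, and 3 rose and 3 fell in D53. Eno3 and Pgam2 of that list are also muscle markers. Of the 13 regulators, 3 rose and 7 fell in D18, and 2 rose and 5 fell in D53. Of the 13 branch genes, 2 rose and 7 fell in D18, and 2 rose and 4 fell in D53. With TMM factors 3 regulators rose and 5 fell in D18, and 3 rose and 3 fell in D53. On that scale 2 branch genes rose and 5 fell in D18, and 3 rose and 3 fell in D53. Of the other glycolytic enzymes, 4 then rose and 3 fell in D18, and 3 rose and 2 fell in D53. Macrophage markers summed to 288 and 344 CPM in the D18 and D53 cystic kidneys, fibroblast markers to 1704 and 2096 CPM, proximal tubule markers to 8468 and 6578 CPM and thick ascending limb and distal convoluted tubule markers to 5480 and 4762 CPM. Against RC/-, 5 of 6 markers of the latter were higher in each line, and of 7 erythroid markers 1 was higher in D18 and 6 in D53. The erythroid marker higher in D18, Slc4a1, is also in the collecting duct list. What part these cell types had in the differences of the members was not tested.

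RC/- D53 and RC/- D18 kidneys were compared directly. None of the member rows passed limma-trend or any alternative run, and none had an unadjusted p below 0.05, where 0.266% of all genes passed and 13.3% had such a p. Over the 10 genes the log2 differences were between -0.04 for Hk2 and Pfkl and 0.29 for Slc16a3 (adjusted p = 0.738). That of Slc16a3 was 0.09 without RC/- D53 replicate 27 and 0.13 without RC/- D18 replicate 21. The second Aldoa row differed by 0.45 (adjusted p = 0.478). Among RC/- D18 mice, replicates 20 to 22 shared the muscle signal with the D53 mice and replicates 18 and 19 did not.

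A further question was whether cystic kidneys differed from noncystic kidneys of the same edited line. In D18 no member row passed the test and 2 had an unadjusted p below 0.05 (Slc16a3 and Pfkl), where 0.266% of all genes passed and 8.91% had such a p. Slc16a3 was at 7.40, 1.96 and 5.45 CPM in RC/+ D18, and only the lowest RC/- D18 kidney, at 6.94 CPM, overlapped them. Its log2 difference was 1.31 ± 0.354 (SE, adjusted p = 0.156), and 0.76 (adjusted p = 0.639) without RC/+ D18 replicate 8, at 1.96 CPM. Pfkl was at 173, 159.9 and 173 CPM in RC/+ D18, just below all RC/- D18 kidneys, a separation that 3.85% of all genes showed, with a log2 difference of 0.24 (adjusted p = 0.392). The difference of Pfkp was 0.01 (adjusted p = 0.991).

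In the D53 line 1 member rose, Pfkp, and 5 had an unadjusted p below 0.05, where 2.45% of all genes rose, 0.146% fell and 13.3% had such a p. Pfkp, Aldoa and Slc16a3 were higher in every cystic than in every noncystic D53 kidney, as were 8.19% of all genes. Pfkp was at 89.5, 95.9 and 109 CPM in RC/+ D53, below every RC/- D53 kidney, with a log2 difference of 0.40 ± 0.106 (SE, adjusted p = 0.0399). The call was lost in 10 of 18 alternatives, including TMM factors (adjusted p = 0.0840) and leaving out RC/+ D53 replicate 10 or 11 or RC/- D53 replicate 23, 24, 25 or 26 (adjusted p up to 0.219). Slc16a3 was at 7.47, 8.60 and 9.27 CPM in RC/+ D53 and above this in all RC/- D53 kidneys, with a log2 difference of 0.64 (adjusted p = 0.465). Hk1 differed by 0.34 (adjusted p = 0.133, and 0.0227 without RC/- D53 replicate 27) and Aldoa by 0.29 (adjusted p = 0.110, and 0.0422 without RC/- D53 replicate 25). In the same comparison 9 of 10 skeletal muscle markers, 5 of 7 macrophage markers and 3 of 8 collecting duct markers were higher. Their summed CPM was 78.2 and 253 for muscle, 229 and 344 for macrophages and 868 and 1605 for collecting duct in RC/+ D53 and RC/- D53. The part of these cell types in the differences of the members was not tested. With the covariate for libraries 20 to 27 the difference of Pfkp was 0.65 (adjusted p = 0.0433).

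Whether the cystic difference in an edited line equalled that in unedited mice was tested by an interaction contrast. For D18, 2 members passed, both with a smaller cystic difference in the edited line, where 10.8% of all genes passed in that direction and 6.31% in the other. The contrast was -0.81 ± 0.150 for Pfkp (SE, adjusted p = 0.000581) and -0.44 ± 0.125 for Pkm (SE, adjusted p = 0.0171). The noncystic groups also enter the contrast. Pfkp was at 106, 130 and 106 CPM in RC/+ D18 and at 90.9, 102 and 109 CPM in RC/+. That log2 difference was 0.18 (adjusted p = 0.983). The Pkm call was lost with TMM factors (adjusted p = 0.0919) and without RC/+ replicate 4 (adjusted p = 0.0637) or replicates 20 to 22 of RC/- D18 (adjusted p = 0.0988). With TMM factors the called genes of this contrast moved from 1424 higher and 2434 lower to 1874 and 1781. For Slc16a3 the D18 contrast was -0.31 (adjusted p = 0.739): its cystic difference was 1.62 in unedited mice and 1.31 in D18, and the RC/+ D18 kidneys were themselves low.

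For D53, Pfkl passed with a contrast of -0.40 ± 0.129 (SE, adjusted p = 0.0435), where 6.55% of all genes passed in that direction and 4.73% in the other. That call was lost with TMM factors (adjusted p = 0.186) and, among the libraries left out in turn, without RC/+ replicate 4 or 5, any RC/+ D53 replicate, RC/- replicate 13, 14 or 16, or RC/- D53 replicate 23, 24, 25 or 26. The largest adjusted p among these was 0.144, without RC/+ replicate 4. With TMM factors the called genes of this contrast moved from 1067 higher and 1478 lower to 1429 and 1015. Without RC/- replicate 17 the contrasts of Pfkl, Pfkp, Pkm and Ldha all passed (adjusted p = 0.0175, 0.0408, 0.0429 and 0.0398). The D53 contrasts with all libraries were -0.42 for Pfkp (adjusted p = 0.0727), -0.36 for Ldha (adjusted p = 0.0773) and -0.98 for Slc16a3 (adjusted p = 0.224). That of Slc16a3 was -0.58 without RC/+ replicate 4, and -0.66 with the covariate for libraries 20 to 27, with which that of Pfkp was -0.17.

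**Figure D4:**
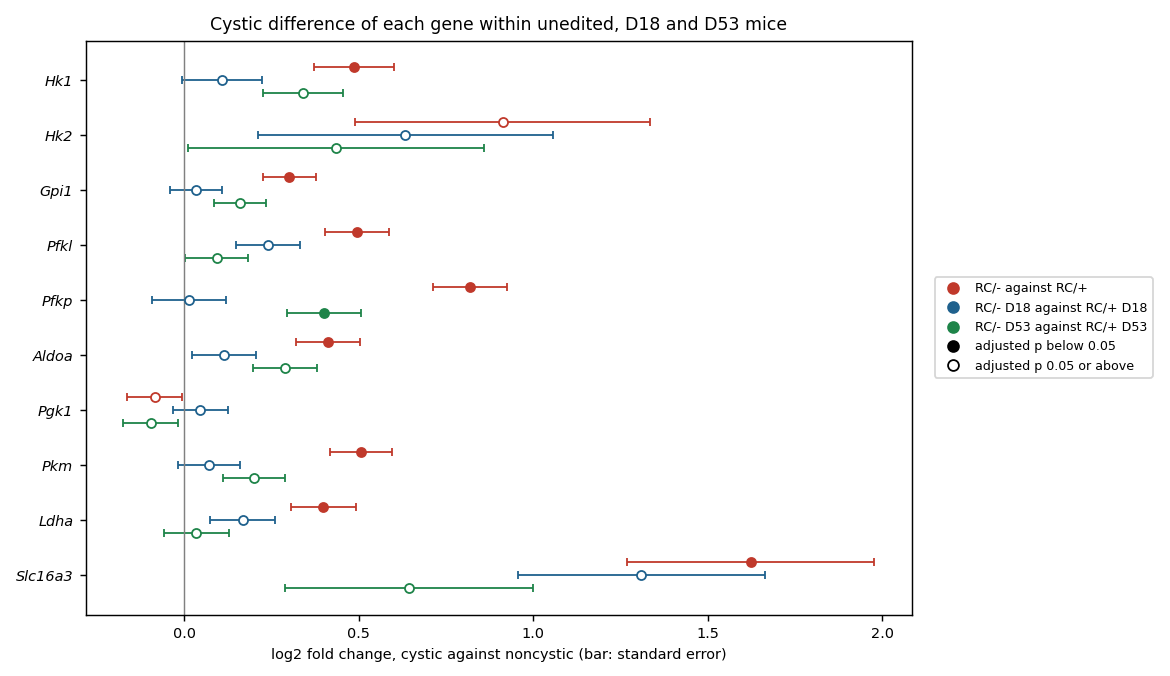
Log2 difference between cystic and noncystic kidneys (± SE, horizontal axis) of each gene within unedited, D18 and D53 mice; filled points passed an adjusted p of 0.05. In unedited mice 8 genes are filled, in D53 only Pfkp (0.40), and in D18 none, while Slc16a3 is at 1.62, 1.31 and 0.64.

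Noncystic kidneys with and without the edit were compared to ask what the edited lines do in the absence of cysts. No member row passed in D18 or D53, where 0.00443% and 0% of all genes passed, and 2 members had an unadjusted p below 0.05 in D18 and none in D53, where 4.49% and 2.33% of all genes had such a p. In D18 these were Slc16a3, with a log2 difference of -1.70 ± 0.396 (SE, adjusted p = 0.588), and Pfkl, with -0.26 (adjusted p = 0.983). Both were below all 3 RC/+ libraries in every RC/+ D18 kidney, a separation that 5.07% of all genes showed in that direction. In D53 the Slc16a3 difference was -0.74 (adjusted p = 1), and its groups overlapped through RC/+ replicate 4, at 8.08 CPM. It was -1.14 without RC/+ replicate 4 and -0.38 without RC/+ replicate 5. Hk2 differed by -0.92 in D18 and -0.76 in D53 (adjusted p = 0.983 and 1). The order of Slc16a3 group means was thus RC/- (44.9 CPM), RC/+ (15.5), RC/- D53 (13.8), RC/- D18 (11.2), RC/+ D53 (8.45) and RC/+ D18 (4.93). The RC/- libraries overlapped no other group, and RC/+, RC/- D53 and RC/- D18 all overlapped one another. RC/+ D53 was below all RC/- D53 libraries, and RC/+ D18 was below all RC/+ D53 libraries.

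Spread between mice differed among the members. Within groups the SD of log2 CPM was 0.65 for Hk2 and 0.55 for Slc16a3, and 0.0972 to 0.169 for the other genes. Deviations from the group means over the 24 libraries had Pearson correlations from -0.33 (Hk1 and Ldha) to 0.78 (Gpi1 and Aldoa) over the 45 pairs of the 10 genes. The next highest were 0.77 for Pfkl and Pkm, 0.74 for Pfkl and Slc16a3, 0.72 for Hk1 and Pfkp and 0.71 for Pgk1 and Ldha. Hk2 and Slc16a3, the 2 genes with the widest spread, had a correlation of 0.65. Egln3 had correlations of 0.72 with Slc16a3 and 0.63 with Hk2. Those of Egln3 with the other members, and of other genes outside the members, are not given here. All of these correlations describe 24 kidneys that share library scaling and cell composition within each library, and carry no test.

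**Figure D5:**
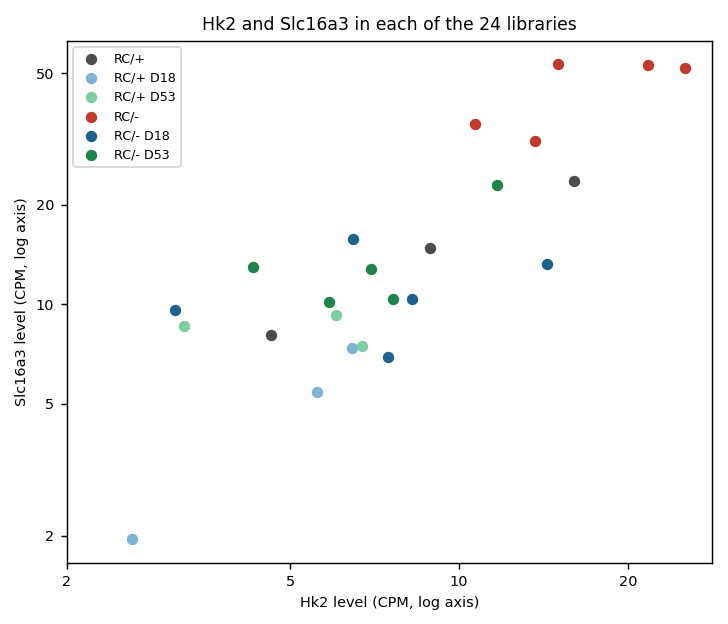
Slc16a3 against Hk2 in CPM (both axes on a log scale) in the 24 libraries, coloured by group. The RC/- kidneys lie at 31.2 CPM or more of Slc16a3 and 10.7 CPM or more of Hk2, and RC/+ replicate 5 (23.5 and 16.01 CPM) is the RC/+ kidney nearest to them.

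Some members have near-identical copies or overlapping genes that could share reads. At 98% identity or more over at least 100 bases, the longest transcript was matched by another gene over 68.8% of its length for Pgk1, 65.5% for Pkm, 27.3% for Gpi1 and 3.7% for Hk1. The best copies held few counts per library: 2 to 17 for Pgk1-rs7 and 33 to 81 for the Pkm copy Gm6560. Exons of Pkm overlapped Gm49759 on the same strand over 15.3% of their bases, and those of Gpi1 overlapped Gm26762 on the opposite strand over 11.5%. The study's methods name STAR's own gene counting, which leaves out reads that map to several places or overlap several genes, so reads from these stretches can be missing from the counts of Pgk1, Pkm and Gpi1.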

How the data were processed

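Whole kidneys of 24 mice were measured by paired-end RNA-seq. The authors trimmed reads with Trim Galore 0.6.3, aligned them to GRCm38 with STAR 2.5.3a, counted them with its GeneCounts mode and deposited raw read counts per Ensembl gene, whole numbers without normalization; the strand column kept is not given in the sources used here. The 343 rows without a symbol held at most 0.0261% of a library and named no gene here. Groups follow the deposited genotype labels, and p-values measure the spread between mice. Each of the 39 within-group library pairs differed beyond sampling noise (chi-square over degrees of freedom 8.45 to 48.2).

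Counts were converted to log2 CPM by total count (edgeR 4.0.16, prior count 2). Genes whose average log2 CPM reached -3 (22570 genes, among them all 11 member rows) were tested by limma-trend (limma 3.58.1, R 4.3.3), with 1 mean per group over all 24 libraries, in 8 comparisons of groups and 2 interaction contrasts, two-sided, with Benjamini-Hochberg adjustment over all genes tested and a threshold of 0.05. The script was tested on simulated data. The members and lists were chosen with earlier results of these data known. Beyond the members, the text names their isozymes and partners and up to 2 rising and 2 falling genes per pathway list with the largest called difference between RC/- and RC/+. Slc16a7, Gapdh, Tpi1, Eno1, Pgam1, Eno3, Pdk1 and Pdk2 were named after their values were seen. Levels per length used the GENCODE M21 exons of GRCm38, which hold 54409 of the 54532 identifiers. Copies were sought with blastn 2.17.0. Alternatives were TMM factors, DESeq2 size factors, edgeR quasi-likelihood, the DESeq2 1.42.0 Wald test, no filter or a limit of 0, a prior count of 0.5, only the groups compared, covariates for sex (14 female and 10 male libraries by Xist and Ddx3y) or for libraries 20 to 27, a log2 difference of at least 1, and leaving out libraries. Some genes of the lists are not reported here.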

Additional observations from a re-analysis of the deposited data

Results flagged for a closer look

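In RC/- D18, Hk1 was lowest in replicate 20, at 266 CPM, while the other 4 kidneys were between 286 and 292 CPM; the gap was 0.779 of the group's range, above Dixon's limit of 0.71 for 5 samples. In RC/- D53, Slc16a3 was highest in replicate 27, at 22.99 CPM, against 10.1 to 12.9 CPM in the others, a gap of 0.782 of the range. The same check was made on 33 groups of 5 libraries, and chance flags about 1 in 20.

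The cystic difference of Pfkp was smaller in D18 than in unedited mice by the interaction contrast, at -0.81, and so was that of Pkm, at -0.44. The cystic difference of Pfkl was smaller in D53 than in unedited mice, at -0.40. In that direction 10.8% of all genes passed the D18 contrast and 6.55% the D53 contrast. The call was lost in 20 of 26 alternatives for Pfkl and in 7 of 27 for Pkm.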

How the results depend on the processing

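No paired analysis was possible because every mouse has its own replicate number and no pairing between groups is given. In RC/- against RC/+, where 8 members rose, 5 passed with TMM factors, 5 with DESeq2 size factors, 5 with edgeR, 7 with DESeq2 and 1 at a log2 difference of at least 1, and 8 to 9 with 1 library left out. For RC/- D18 against RC/- 2 passed at a log2 difference of at least 1 (8 to 9 with 1 library left out), and 6 with TMM factors. For RC/- D53 against RC/- 2 passed at that limit and 2 with the covariate for libraries 20 to 27 (7 to 9 with 1 library left out). For RC/- D53 against RC/+ D53, 0 passed with TMM factors, DESeq2 size factors, edgeR, no filter and that limit, and 0 to 2 with 1 library left out. For the D18 interaction 1 passed with TMM factors, DESeq2 size factors, edgeR, DESeq2, the library covariate and without replicates 20 to 22 of RC/- D18 (an alternative chosen after seeing the data), 0 at that limit, and 1 to 2 with 1 library left out. For the D53 interaction 0 passed with TMM factors, DESeq2 size factors, edgeR, DESeq2, no filter, only the groups compared, either covariate and that limit, and 0 to 4 with 1 library left out. Pgk1 changed sign against RC/-: in D18 to 0.0975 (TMM), 0.0941 (DESeq2 size factors), 0.0925 (edgeR) and 0.0893 (DESeq2), and -0.0828 to 0.0153 with 1 library left out, and in D53 to 0.0675, 0.0604, 0.0597 and 0.0528 in that order, and -0.0802 to 0.0168. The D18 interaction of Slc16a3 ran from -0.866 to 0.0873 with 1 library left out. The cause of these changes was not tested. How many of all genes passed in these alternatives is given above only for some runs with TMM factors. Elsewhere a change in the members called cannot be set against a change over all genes. Counts per library were lowest for the second Aldoa row (12 to 34), followed by Hk2 (64 to 591) and Slc16a3 (48 to 1265). How much of the spread of Hk2 and Slc16a3 came from depth was not tested.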
